A study of Homo sapiens with 6 samples.

Results

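The gene set described here holds 10 genes of interleukin-6 (IL-6) family signaling: the cytokine genes LIF, CLCF1, IL11 and IL6, the receptor genes LIFR, IL6ST, IL6R and OSMR, and STAT3 and SOCS3. They were taken by gene symbol from the 58735 genes of the deposited count table, each symbol matched 1 row, and all 10 were among the 15430 genes that passed the filter on low counts. The set was chosen by function and with the fold changes of siDAB2IP against siControl already known. The differences of these 10 genes are therefore given as a description, and their calls past the threshold are not independent support for them. The RNA came from MCF10A, an established nonmalignant breast epithelial cell line of human origin, collected 48 hours after transfection and measured by RNA-Seq. The siControl group (3 libraries) received a nontargeting control pool, and the siDAB2IP group (3 libraries) received siRNA against DAB2IP, which encodes a Ras GTPase-activating protein. All cells shared the same medium, which contained horse serum, insulin, epidermal growth factor, cholera toxin and hydrocortisone, a glucocorticoid. The groups thus compare 1 cell line, 1 siRNA reagent against DAB2IP and 1 control pool, and off-target effects of the siRNA cannot be told apart from loss of DAB2IP. The labels number the replicates without saying whether they were separate cultures, so p-values measure only the spread between these libraries, which may be technical.

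Cytokines of the IL-6 family signal through the shared receptor chain gp130, the product of IL6ST. IL-6 and IL-11 first bind their own receptor chains, whereas LIF and CLCF1 bring gp130 together with the LIF receptor (LIFR), and oncostatin M pairs gp130 with the product of OSMR or with LIFR. Janus kinases bound to these chains phosphorylate STAT3, which then enters the nucleus, and SOCS3 is a STAT3-induced inhibitor that binds gp130 and JAK proteins. In the mammary gland, LIF and STAT3 are known for their part in the regression of the gland after weaning. Only RNA was measured here, so the values give no information on secreted cytokine, receptor protein or phosphorylated STAT3.

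The sequence just before a gene's start is where many transcription factors act, and the motifs of 3 factor families tied to these genes were searched for there on both strands: the STAT motif TTCNNNGAA (GAS), the AP-1 motif TGANTCA and the κB motif of NF-κB. Windows of 250 bases before each start were taken from RefSeq (GRCh38.p14) and were found for 8 of the 10 genes, in 11 windows. LIF and CLCF1 had no entry. Neither SOCS3 window (chr17:78360926-78361175 and chr17:78359668-78359917, minus strand) adjoins the SOCS3 start of the count table, at 78360077. The bases just before that start were therefore not searched. A motif was present in 4 windows of 3 genes, IL6, IL11 and LIFR, and these show a ligand gene whose counts were lower, a ligand gene whose groups overlapped and the receptor gene of which the smallest share remained. They are printed 5′ to 3′ on the strand of the gene, with the motif in capitals, and for IL6 the last 53 bases of the window, which belong to a longer annotated IL6 transcript, are left out.
IL6, chr7:22726950-22727146, plus strand, κB motif: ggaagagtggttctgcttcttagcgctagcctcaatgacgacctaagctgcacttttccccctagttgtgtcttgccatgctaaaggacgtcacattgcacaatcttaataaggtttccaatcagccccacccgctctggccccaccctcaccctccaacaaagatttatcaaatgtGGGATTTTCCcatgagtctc
IL11, chr19:55370464-55370713, minus strand, AP-1 motif: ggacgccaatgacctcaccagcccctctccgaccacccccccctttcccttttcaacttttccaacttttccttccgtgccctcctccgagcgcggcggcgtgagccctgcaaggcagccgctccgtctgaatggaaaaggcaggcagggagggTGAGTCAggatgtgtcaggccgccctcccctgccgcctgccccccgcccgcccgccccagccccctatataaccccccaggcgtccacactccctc
LIFR, chr5:38595406-38595655, minus strand, GAS motif: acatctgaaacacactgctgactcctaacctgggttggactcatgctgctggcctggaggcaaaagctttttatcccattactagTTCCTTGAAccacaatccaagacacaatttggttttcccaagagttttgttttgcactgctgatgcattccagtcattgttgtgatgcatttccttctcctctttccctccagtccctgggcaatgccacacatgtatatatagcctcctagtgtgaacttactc
LIFR, chr5:38557468-38557717, minus strand, GAS motif: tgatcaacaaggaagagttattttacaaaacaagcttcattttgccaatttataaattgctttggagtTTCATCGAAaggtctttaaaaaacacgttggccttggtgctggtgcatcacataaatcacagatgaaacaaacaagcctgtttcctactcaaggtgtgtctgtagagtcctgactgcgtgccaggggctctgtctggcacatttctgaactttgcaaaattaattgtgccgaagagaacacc
Counted back from the start, the motifs began at base 73 for IL6, 96 for IL11, and 165 and 182 for the printed LIFR windows. No motif overlapped another. A further LIFR window, chr5:38556647-38556896, was searched and held no motif. In GENCODE release 29, the IL6 window and both printed LIFR windows lie inside the span of their own gene. Longer transcripts of these genes start further upstream, and the IL11 window holds no annotated gene. The former printed LIFR window holds no annotated exon, and the latter is exonic for the antisense gene LIFR-AS1 and holds the miRNA gene MIR3650. Among 35116 such windows of all genes, 6.57% held the GAS motif, 6.57% the AP-1 motif and 5.21% the κB motif, and a match of letters does not show that a factor binds.

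The targeted gene was lower in each siDAB2IP library. DAB2IP (chromosome 9, 121567057 to 121785530, plus strand) was at 103, 94.2 and 77.4 CPM (counts relative to the library total, scaled with the TMM factors of edgeR) in siControl replicates 1, 2 and 3, and at 27.5, 25.6 and 22.4 CPM in the siDAB2IP replicates. Its level fell to 27.5% of the control level (log2 fold change −1.86, standard error 0.13, adjusted p = 9.71e-05 from the quasi-likelihood test of edgeR). The libraries held 16353783 to 21916062 counts, at which 0 counts allow up to 0.137 to 0.183 CPM by counting error alone. The libraries carried the markers of their label: all 7 mammary epithelium markers looked up were tested. Their summed level was 7851 to 9702 CPM in siControl and 4790 to 6053 CPM in siDAB2IP. KRT5, KRT14 and KRT17, keratins of basal epithelium, fell (log2 fold changes −0.97, −1.52 and −0.54, adjusted p = 0.00223, 0.00577 and 0.0366 from edgeR), the other 4 markers did not pass (log2 fold changes −0.57 for TP63, −0.40 for EPCAM, 0.12 for ITGB4 and 0.09 for CDH1), and the part of this in the values below was not tested. Of the leukocyte markers, CD3E had 0 counts in all libraries, PTPRC and CD68 had at most 4, and CD14, which made up nearly all of the list's sum, was at 56.8 ± 18.3 and 64.6 ± 14.0 CPM (SD, n = 3 each). The summed levels ranged from 163 to 293 CPM in siControl and from 146 to 206 CPM in siDAB2IP for the 6 fibroblast markers, with COL1A2, COL3A1 and LUM at 10 counts or fewer and COL1A1 risen (log2 fold change 0.78, adjusted p = 0.0129 from edgeR) while DCN, which made up most of the sum, and PDGFRB did not pass (−0.49 and −0.61), and from 11.05 to 16.0 and from 7.42 to 11.2 CPM for the 3 endothelium markers, none of them at 0. In such bulk RNA, fewer cells of a type and less RNA per cell cannot be told apart.

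Of the 10 genes, 2 ligand genes were higher (LIF and CLCF1) and 6 genes were lower (LIFR, IL6ST, IL6R, OSMR, STAT3 and SOCS3) past the threshold used for all genes (Benjamini-Hochberg adjusted p of less than 0.05), which IL6 and IL11 did not reach. Of all genes tested, 6.55% were higher and 7.65% lower by the same rule, and since the set was proposed from this comparison, nothing is read from its count. The median log2 fold change was −0.90 over the 10 genes and 0.01 over all genes tested. All siDAB2IP libraries lay on the same side of all siControl libraries for 9 of the 10 genes, IL11 being the exception, and of all genes tested 17.6% were separated in this way upward and 18.3% downward.

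**Figure D1:**
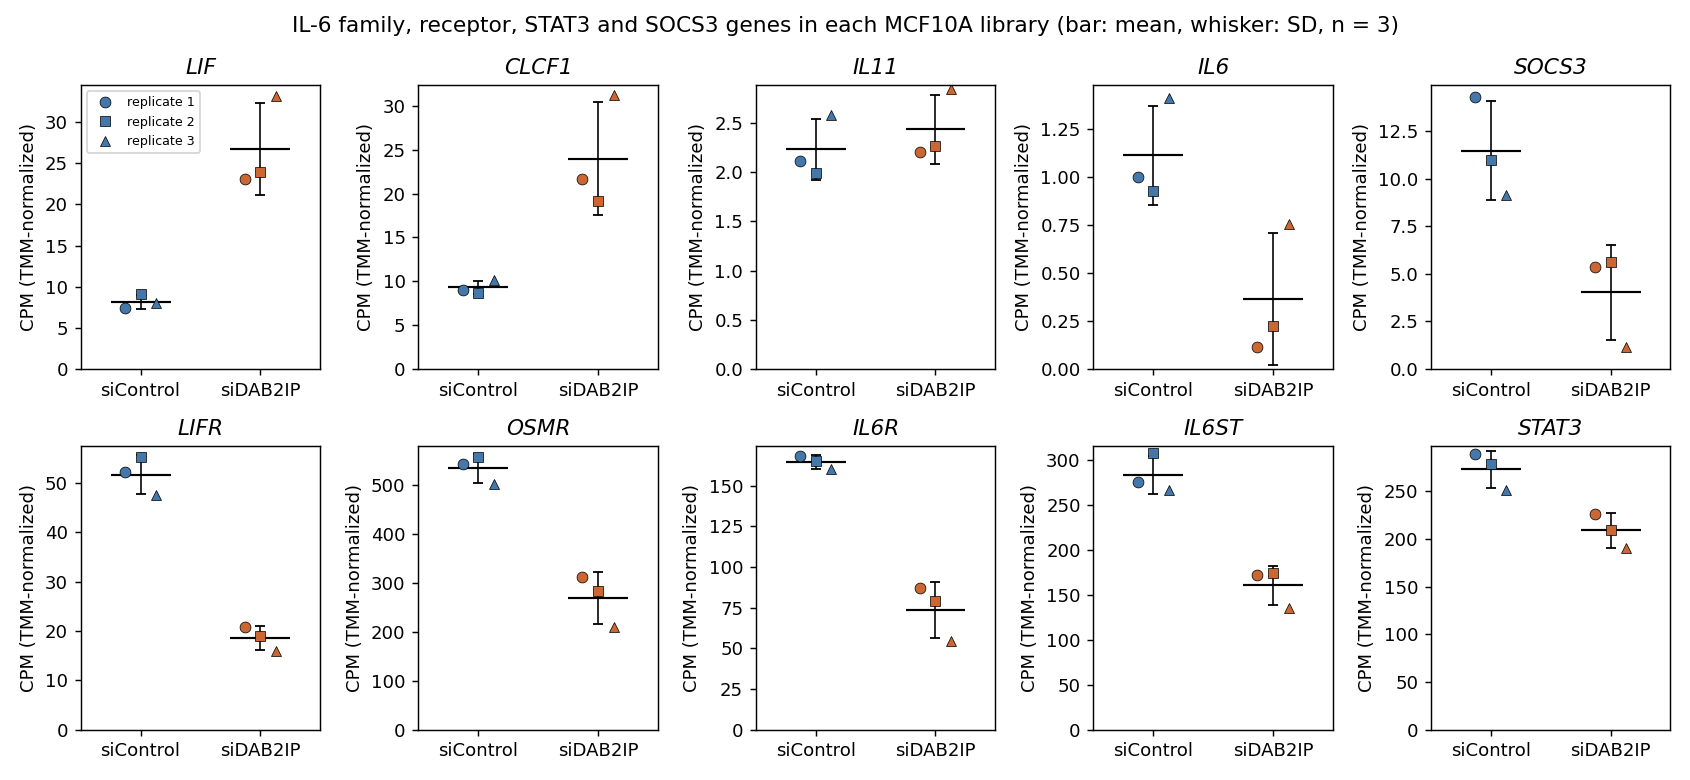
Level in TMM-normalized CPM (y axis, from 0) of each of the 10 genes in the 3 siControl and 3 siDAB2IP libraries. Points are libraries with 1 symbol per replicate number, the bar is the mean and the whisker the SD (n = 3), and the groups are separate in each panel except that of IL11.

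Among the ligands, LIF was higher in each siDAB2IP library. LIF (chromosome 22, 30240447 to 30246851, minus strand), the cytokine that gives the LIF receptor its name, was at 7.41, 9.05 and 7.98 CPM in siControl replicates 1, 2 and 3 and at 23.1, 23.9 and 33.2 CPM in the siDAB2IP replicates. Replicate 3 was the highest of the siDAB2IP libraries, and replicates 1 and 2 lay within 1 CPM of each other. The means were 8.15 ± 0.832 and 26.7 ± 5.63 CPM (SD, n = 3 each), a 3.27-fold difference (log2 1.71, standard error 0.17). Without siDAB2IP replicate 3 the log2 fold change was 1.52.

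CLCF1 (chromosome 11, 67364168 to 67374177, minus strand) encodes a B-cell stimulating cytokine. Its siControl libraries were at 9.03, 8.68 and 10.2 CPM and its siDAB2IP libraries at 21.6, 19.1 and 31.3 CPM. As for LIF, siDAB2IP replicate 3 was highest, and the lowest siDAB2IP library lay well above the highest siControl library. The means of 9.29 ± 0.771 and 24.0 ± 6.41 CPM (SD, n = 3 each) differed 2.58-fold (log2 1.37, standard error 0.19).

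IL11 and IL6 were the least abundant of the 10 genes. IL11 (chromosome 19, 55364389 to 55370463, minus strand), a cytokine that signals through its own receptor chain and gp130, was at 2.12, 1.996 and 2.58 CPM in siControl and at 2.20, 2.27 and 2.84 CPM in siDAB2IP. In both groups replicate 3 was highest, the groups overlapped, and the log2 fold change was 0.13 (standard error 0.25). IL6 (chromosome 7, 22725884 to 22732002, plus strand), the founding cytokine of the family, had 16, 20 and 24 counts in siControl and 2, 4 and 13 counts in siDAB2IP. That is 0.997, 0.929 and 1.41 CPM against 0.113, 0.222 and 0.754 CPM, so the siDAB2IP libraries were all lower than the siControl libraries, and replicate 3 held most of the group's counts. IL6 passed the filter on low counts through its siControl libraries, and a gene that passes in this way tends to be lower in the other group. Its log2 fold change was −1.60 (standard error 0.57), it was −2.67 without siDAB2IP replicate 3, and it passed the threshold in that fit, without the filter, and with the replicate number as a block (log2 fold change −1.70), where 9.59% of all genes were higher and 11.4% lower.

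All 4 receptor genes were lower in siDAB2IP, and the lowest share remained of LIFR, a receptor chain used by both LIF and CLCF1. LIFR (chromosome 5, 38474963 to 38608354, minus strand) was at 52.1, 55.2 and 47.4 CPM in siControl and at 20.7, 19.1 and 15.9 CPM in siDAB2IP. The groups were far apart compared with their spread (means 51.6 ± 3.93 and 18.5 ± 2.45 CPM, SD, n = 3 each), and 35.9% of the control level remained (log2 fold change −1.48, standard error 0.13). IL6R (chromosome 1, 154405193 to 154469450, plus strand), which encodes the chain that binds IL-6, was at 169, 166 and 160 CPM in siControl and at 87.2, 79.0 and 54.5 CPM in siDAB2IP. Its siControl libraries were nearly level and its siDAB2IP libraries spread more widely, with means of 165 ± 4.24 and 73.6 ± 17.0 CPM (SD, n = 3 each), or 44.7% remaining (log2 fold change −1.16, standard error 0.15).

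OSMR (chromosome 5, 38845858 to 38945596, plus strand), the oncostatin M receptor chain, was at 542, 556 and 500 CPM in siControl and at 311, 284 and 210 CPM in siDAB2IP. About the same share of its transcript remained as of IL6R, 50.4% (means 533 ± 28.9 and 268 ± 52.5 CPM, SD, n = 3 each; log2 fold change −0.99, standard error 0.15). IL6ST (chromosome 5, 55935095 to 55994993, minus strand), the gene of the shared chain gp130, was at 276, 307 and 266 CPM in siControl and at 172, 174 and 135 CPM in siDAB2IP. The means were 283 ± 21.3 and 160 ± 21.8 CPM (SD, n = 3 each), so 56.7% remained (log2 fold change −0.82, standard error 0.12), the highest share of the receptors. In each receptor gene siDAB2IP replicate 3 was the lowest library.

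STAT3 and its feedback inhibitor SOCS3 were also lower, by very different amounts. STAT3 (chromosome 17, 42313324 to 42388568, minus strand), the transcription factor that the receptors activate, was at 290, 279 and 252 CPM in siControl and at 227, 210 and 191 CPM in siDAB2IP. The groups were separate but the gap between them was narrow, with 76.5% remaining (means 273 ± 19.5 and 209 ± 18.0 CPM, SD, n = 3 each; log2 fold change −0.39, standard error 0.11). SOCS3 (chromosome 17, 78356778 to 78360077, minus strand) was at 14.3, 10.96 and 9.16 CPM in siControl and at 5.36, 5.59 and 1.16 CPM in siDAB2IP. Its siDAB2IP replicate 3 had 20 counts against 95 and 101 in the other siDAB2IP libraries, and the log2 fold change was −1.50 (standard error 0.42) with that library and −1.06 without it. STAT3 was on the same side of the threshold in 9 of the 15 alternative fits and SOCS3 in 8 of the 15, whereas LIF, CLCF1 and the 4 receptor genes were in all 15.

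Replicate 3 was the siDAB2IP library farthest from the siControl mean for 8 of the 8 genes past the threshold. The same library was farthest for 61.6% of the 2192 genes called over the whole table, and it was nearest for IL6. Without it, the log2 fold changes were 1.13 for CLCF1, −1.38 for LIFR, −0.99 for IL6R, −0.84 for OSMR, −0.71 for IL6ST and −0.32 for STAT3, each still past the threshold, with 7.44% of all genes higher and 8.59% lower in that fit.

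**Figure D2:**
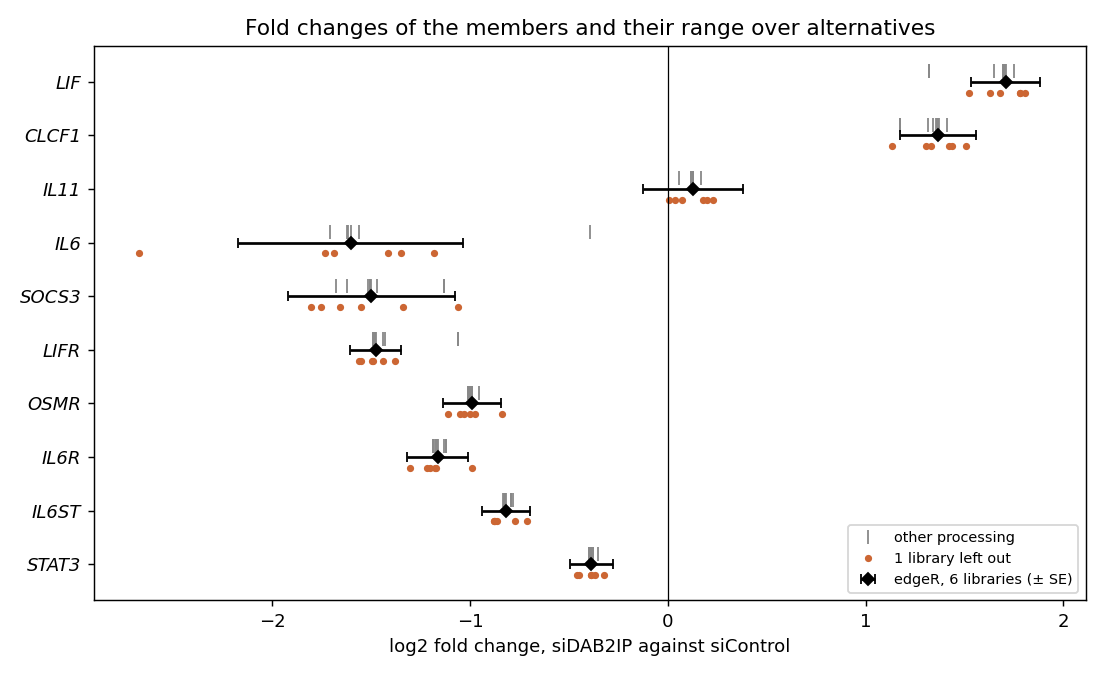
Log2 fold change of siDAB2IP against siControl (x axis) for each of the 10 genes. Diamonds with bars are the edgeR estimate from 6 libraries and its standard error, dots are fits with 1 library left out and ticks are other processing. All estimates of LIF and CLCF1 lie above 0, all of the receptor genes, STAT3, SOCS3 and IL6 lie below 0, IL11 sits next to 0, and the estimate of IL6 farthest to the left (−2.67) is the fit without siDAB2IP replicate 3.

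Levels can be compared between genes only per length, and for this the deposited FPKM values (fragments per unit of gene length and of sequencing depth) were used. The gene length counts all annotated exons of a gene together. A single transcript can be shorter, so the orders below can depend on this choice of length. In siControl the order of the mean FPKM was OSMR (73.6), STAT3 (30.7), IL6ST (30.2), IL6R (25.3), CLCF1 (4.66), LIFR (4.31), SOCS3 (4.15), LIF (2.04), IL11 (0.828) and IL6 (0.532). STAT3 and IL6ST overlapped between libraries, as did the neighbors CLCF1, LIFR and SOCS3, and the other neighbors were separate. In siDAB2IP the order of the mean FPKM was OSMR (37.0), STAT3 (23.5), IL6ST (17.1), CLCF1 (12.0), IL6R (11.3), LIF (6.66), LIFR (1.55), SOCS3 (1.46), IL11 (0.902) and IL6 (0.173). Here IL6ST, CLCF1 and IL6R overlapped with their neighbors, as did LIFR, SOCS3 and IL11. LIF thus stood below LIFR in every siControl library and above it in every siDAB2IP library.

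**Figure D3:**
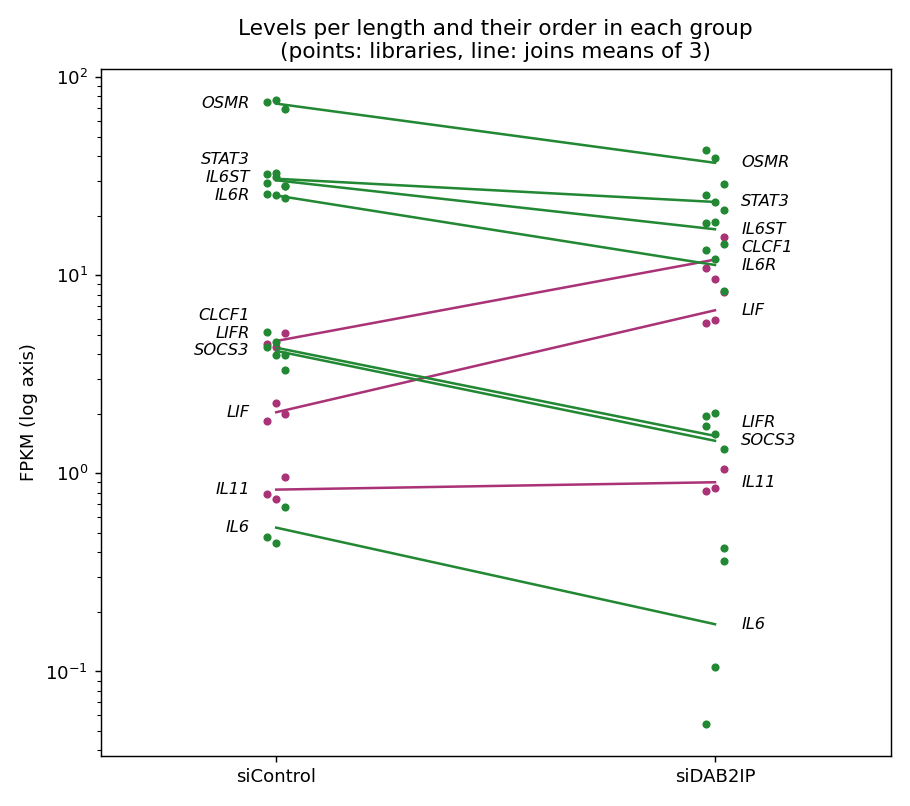
Mean FPKM (y axis, log scale) of the 10 genes in siControl and siDAB2IP, joined by lines, with points for the 3 libraries of each group. Magenta genes have the higher mean in siDAB2IP and green genes the lower; the line of LIF crosses those of LIFR and SOCS3, and that of CLCF1 crosses that of IL6R, whereas OSMR is the highest in both groups (73.6 and 37.0 FPKM).

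The FPKM of LIF divided by that of LIFR was 0.425, 0.490 and 0.503 in the siControl libraries and 3.33, 3.75 and 6.25 in the siDAB2IP libraries. For CLCF1 divided by LIFR the values were 1.04, 0.944 and 1.29 against 6.27, 6.02 and 11.8. Both ratios were thus several times higher in each siDAB2IP library, as the separate directions of the genes require. The FPKM of the 4 ligand genes summed to 7.64, 7.83 and 8.71 in siControl and to 17.5, 16.5 and 25.3 in siDAB2IP, and LIF and CLCF1 together made up 81.3% to 84.8% and 94.3% to 95.0% of these sums. The 4 receptor genes summed to 134, 140 and 126 FPKM in siControl and to 76.5, 71.3 and 52.9 FPKM in siDAB2IP. Within that smaller sum the share of OSMR overlapped between the groups, with 54.8% to 55.7% in siControl and 54.6% to 56.2% in siDAB2IP.

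**Figure D4:**
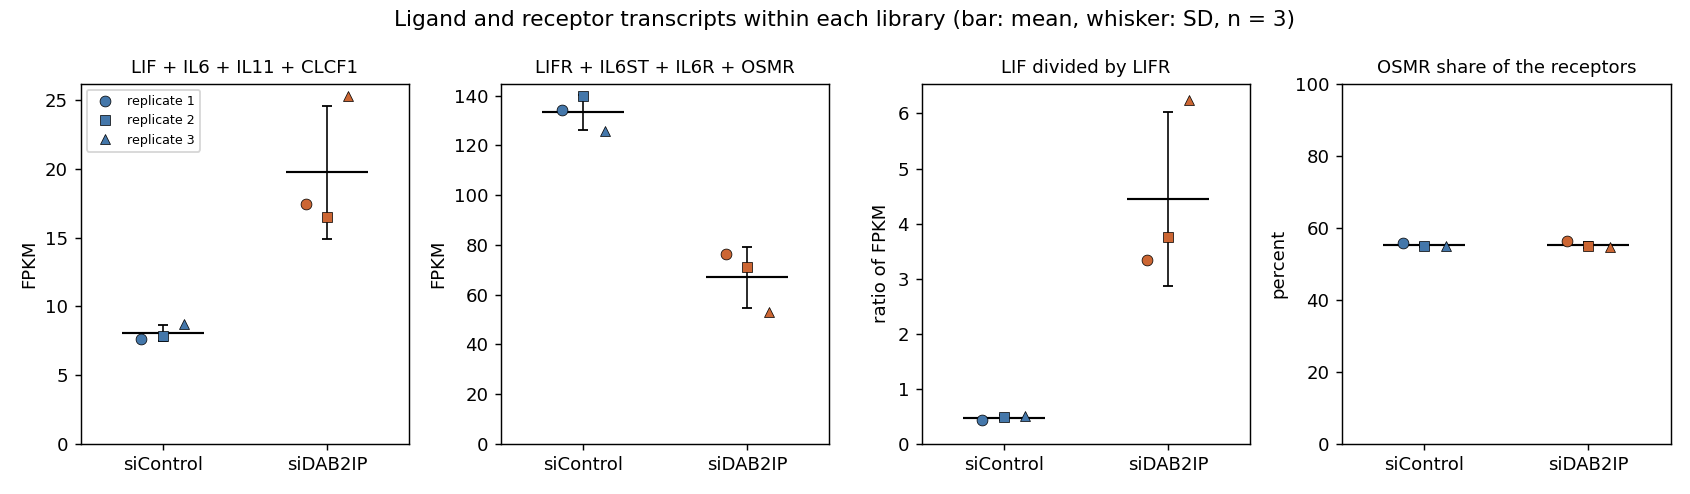
Summed FPKM of the 4 ligand genes, summed FPKM of the 4 receptor genes, the ratio of LIF to LIFR and the percent of receptor FPKM held by OSMR (y axes, from 0) in each library. Points are libraries, bars means and whiskers SD (n = 3): the ligand sum and the ratio are higher in siDAB2IP, the receptor sum is lower, and the OSMR share overlaps between the groups.

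Several of the genes overlap another gene on the opposite strand, and the sources used here do not say whether the counting used the strand, so reads of overlapping genes may have been mixed. LIF shares 175 exon bases (4.41% of its exon bases) with AC004264.1, which had 2 to 21 counts per library and did not pass the test (log2 fold change 0.89, adjusted p = 0.433 from edgeR), against 119 to 573 counts of LIF. OSMR shares 229 exon bases with RICTOR, whose difference of 0.35 on the log2 scale (adjusted p = 0.0795, edgeR) had the opposite sign to that of OSMR. CLCF1 lies within the span of RAD9A without shared exon bases, and RAD9A differed by −0.00 on the log2 scale (adjusted p = 0.996, edgeR). The antisense gene LIFR-AS1 had at most 7 counts in a library, AC073072.1, which overlaps 20.7% of the IL6 exon bases, had at most 2, and IL11, STAT3 and SOCS3 overlapped no other gene.

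Beyond the 10 genes, 41 other genes of IL-6 family and JAK/STAT signaling were looked up, and 36 were tested. JAK1, the kinase on which gp130 signaling chiefly depends, fell, and the other Janus kinases and STAT genes did not pass the test. In all, 2 genes rose (5.56%), 5 fell (13.9%) and 29 did not pass, set against 6.55% and 7.65% of all genes tested, and the median log2 fold change was −0.05. The number that rose and fell was 4 and 7 under the replicate block (9.59% and 11.4% of all genes). With siControl replicate 1 left out it was 1 and 1 (2.74% and 4.74% of all genes). Leaving out siControl replicate 2 gave 0 and 2 (1.67% and 2.9% of all genes), or 3 and 7 at an unadjusted p under 0.05. Leaving out siControl replicate 3 gave 1 and 2 (2.51% and 4.1%). For siDAB2IP replicates 1, 2 and 3 it was 2 and 3 (4.15% and 5.4%), 1 and 2 (4.47% and 6.44%), and 4 and 4 (7.44% and 8.59%).

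JAK1 was at 99.9, 106 and 105 CPM in the siControl libraries and at 58.5, 60.6 and 54.0 CPM in the siDAB2IP libraries. The libraries of each group were close together and 55.7% of the control level remained (log2 fold change −0.84, standard error 0.09, adjusted p = 0.000862 from edgeR), past the threshold in all 15 alternatives. JAK2 and TYK2 differed by 0.12 and 0.14 on the log2 scale (adjusted p = 0.665 and 0.411 from edgeR), and JAK3 had at most 5 counts in a library. Of the other 6 STAT genes, 0 passed with edgeR, also at an unadjusted p under 0.05, and 0 with DESeq2.

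Most of the other ligand genes were scarce. OSM, IL27 and IL31 had 0 counts in all libraries, so the ligand that gives OSMR its name was not detectable at this depth. CTF1 and CNTF stayed under 1.3 CPM in every library. EBI3, a subunit of IL-27, was at 1.37 ± 0.0833 CPM in siControl and 1.96 ± 0.315 CPM in siDAB2IP (SD, n = 3 each; log2 fold change 0.51, adjusted p = 0.25 from edgeR).

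Of the other receptors, IL31RA, which pairs with OSMR to bind IL-31, rose from 6.36 ± 1.27 to 11.6 ± 1.69 CPM (SD, n = 3 each; log2 fold change 0.87, adjusted p = 0.0169 from edgeR), and stayed past the threshold in 11 of 15 alternatives. IL27RA, which pairs with gp130, fell from 65.3 ± 4.52 to 50.8 ± 3.85 CPM (SD, n = 3 each; log2 fold change −0.36, adjusted p = 0.0411 from edgeR), and did so in 6 of 15. IL11RA differed by 0.05 on the log2 scale (adjusted p = 0.875, edgeR), and CNTFR had at most 3 counts in a library.

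Among 14 inhibitors other than SOCS3, 1 rose and 3 fell. PTPN6, which encodes the phosphatase SHP-1, rose from 22.8 ± 1.02 to 32.4 ± 1.63 CPM (SD, n = 3 each; log2 fold change 0.51, adjusted p = 0.0152 from edgeR). The genes that fell were PIAS1 and PIAS3, inhibitors of STAT proteins, and PTPN1, a phosphatase of Janus kinases (log2 fold changes −0.58, −0.39 and −0.47, adjusted p = 0.018, 0.0293 and 0.0168 from edgeR). PTPN6 and PIAS1 stayed past the threshold in 12 of the 15 alternatives, and PIAS3 and PTPN1 in 10. PIAS1 shares 2933 exon bases with AC107871.1 and 3260 with CALML4, and PIAS3 shares 432 with NUDT17, each on the opposite strand. SOCS2 had a log2 fold change of 0.56, the adaptor gene GRB2 one of 0.31 and the sheddase gene ADAM17, whose product cleaves receptors from the cell surface, one of −0.41, which did not pass (adjusted p = 0.0567, 0.0734 and 0.146 from edgeR) and passed with the replicate block (adjusted p = 0.0429, 0.039 and 0.0357).

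Of 24 genes widely described as STAT3 targets, 17 were tested, and 2 rose (11.8%), 5 fell (29.4%) and 10 did not pass, set against 6.55% and 7.65% of all genes tested. The list was made with earlier results of these data known, the rise of CCND1 among them, so nothing is read from these shares. The median log2 fold change was −0.09, with 8 genes above 0 and 9 below. Many of these genes are also targets of other factors, NF-κB among them. Leaving out siControl replicate 1 or siControl replicate 2 left 2 that fell in each case, where 4.74% and 2.9% of all genes were lower. With the replicate block (9.59% and 11.4% of all genes) 3 rose and 7 fell, as MCL1 (adjusted p = 0.0455) then rose and BIRC5 and LRG1 (adjusted p = 0.0276 and 0.0454) then fell.

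SERPINA3, an acute-phase protease inhibitor, was at 13.7, 18.2 and 12.6 CPM in siControl and at 2.37, 2.603 and 3.19 CPM in siDAB2IP. The level that remained was 18.4% (log2 fold change −2.45, standard error 0.21, adjusted p = 0.000222 from edgeR), past the threshold in all 15 alternatives. The membrane mucin gene MUC1 fell from 561 ± 76.1 to 317 ± 56.4 CPM (SD, n = 3 each; log2 fold change −0.82, adjusted p = 0.00767 from edgeR), past the threshold in 14 of 15 alternatives. BCL3, an atypical IκB protein, IRF1, an interferon response factor, and CEBPD, a transcription factor of the acute-phase response, fell by less or with more spread (log2 fold changes −0.49, −0.71 and −0.75, adjusted p = 0.016, 0.0264 and 0.0497 from edgeR). BCL3, IRF1 and CEBPD stayed past the threshold in 12, 9 and 8 of the 15 alternatives.

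In the other direction, BCL2L1, which encodes the survival protein BCL-XL, was at 28.5, 22.7 and 25.3 CPM in siControl and at 38.5, 44.8 and 42.0 CPM in siDAB2IP. Every siDAB2IP library was above every siControl library (log2 fold change 0.71, standard error 0.12, adjusted p = 0.00569 from edgeR), and it passed in all 15 alternatives. CCND1, the cyclin D1 gene, whose rise was known when the list was made, had a log2 fold change of 1.14. BCL2L1 shares 1424 exon bases with ABALON, CCND1 497 with LTO1 and IRF1 1716 with C5orf56, on opposite strands. MYC was at 676 ± 5.64 and 705 ± 33.0 CPM (SD, n = 3 each; adjusted p = 0.746 from edgeR).

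**Figure D5:**
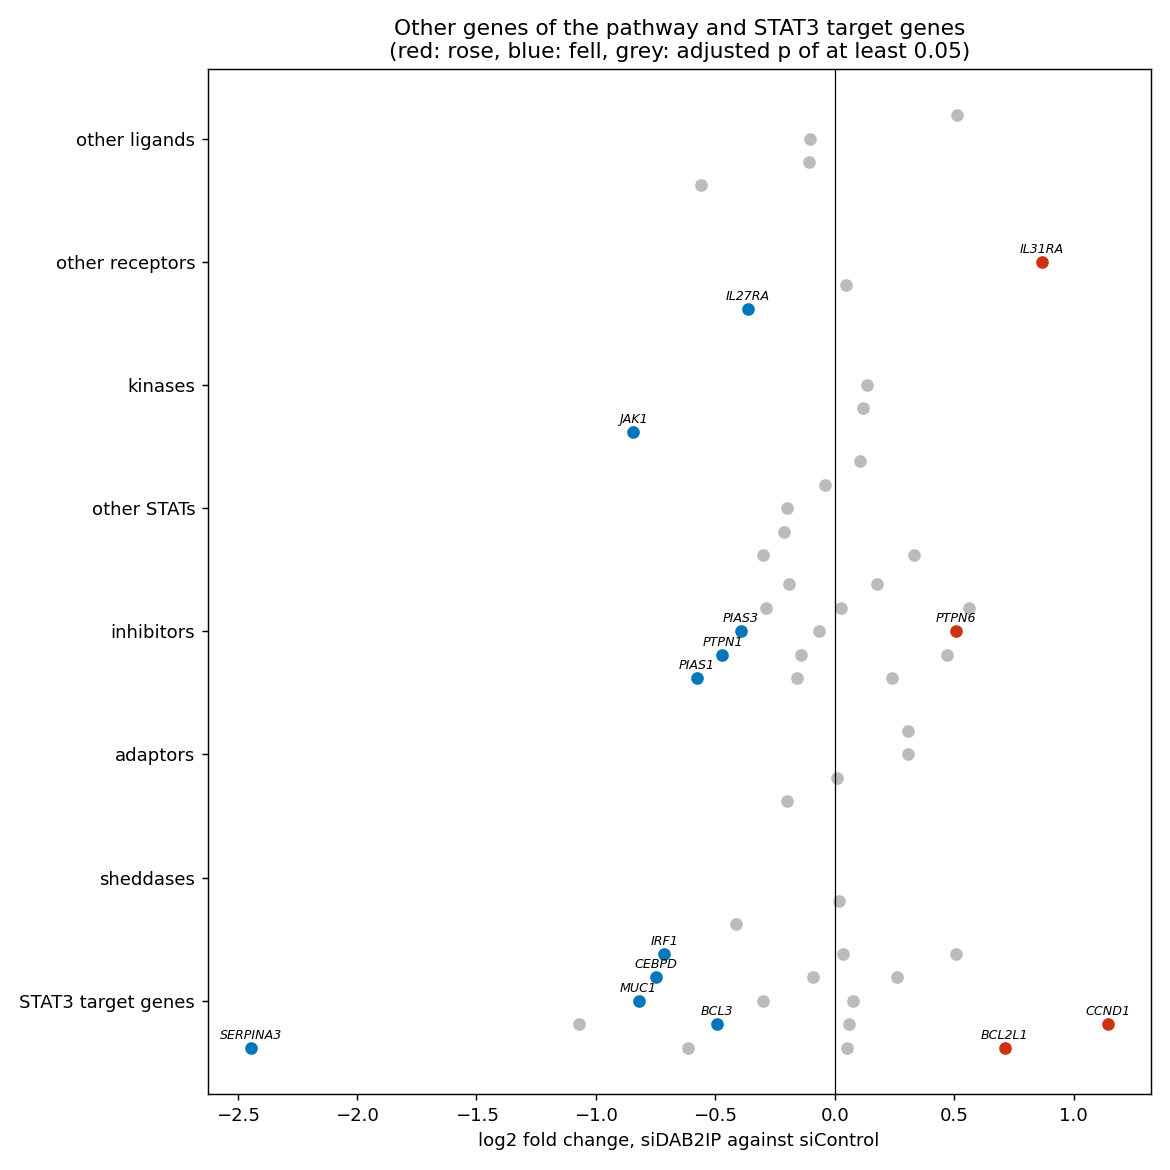
Log2 fold change of siDAB2IP against siControl (x axis) for the tested genes of each list (rows): 36 other pathway genes in 7 roles and 17 STAT3 target genes. Points are genes, red for those that rose, blue for those that fell and grey for an adjusted p of at least 0.05, with vertical offsets for legibility only. SERPINA3 lies farthest to the left (−2.45), CCND1 farthest to the right (1.14), and JAK1 is the only kinase in blue.

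Over the 6 libraries, the genes whose log2 CPM followed that of LIF most closely among 14074 genes were MAP4K2 (Pearson r = 0.999), MAPK6 (0.9987), ABCC10 (0.9982), TMEM255B (0.9978) and XYLT2 (0.9973). These values describe 6 points that fall into the groups of the design and share depth and scaling within a library. Of the other genes of the set, r with LIF was 0.978 for CLCF1 and 0.461 for IL11, and between −0.986 (LIFR) and −0.873 (SOCS3) for the rest, without IL6, which was under the minimum of 1 CPM.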

How the data were processed

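RNA-Seq counts of 6 MCF10A libraries, 3 siControl and 3 siDAB2IP, were used. The authors deposited whole-number counts per gene and library without normalization. They also deposited FPKM values, which equal the count divided by gene length and by a scaled library total of 98.9% to 104.7% of the library's counts. The submitters' processing notes name STAR 2.6.1d, featureCounts 1.5.0-p3, DESeq2 1.20.0, edgeR 3.24.3 and build hg38, without roles or the strand setting. All 58735 genes had the start, end and strand of GENCODE release 29, so coordinates are GRCh38.

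The study's methods give no settings for a test of these libraries, and a legend of its supplement names a DESeq analysis. The counts were tested by edgeR 4.0.16 under R 4.3.3 (filterByExpr by group, with a minimum count of 10, TMM, glmQLFit, glmQLFTest), and p-values were adjusted by Benjamini-Hochberg over 15430 genes, with 0.05 as the threshold. Standard errors were derived from the F statistic. The common biological coefficient of variation was 14.8%. FPKM values were used for levels between genes and, with limma 3.58.1 on a log2 scale, as an alternative. Other alternatives were DESeq2 1.42.0, its size factors in edgeR, library size only, no filter, at least 10 counts in every library, a replicate block and leaving out each library. The edgeR step was tested on simulated data.

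The members, the lists and the rule for named genes (DAB2IP, the members, called genes of the lists, the other tested ligands and receptors, genes overlapping a member, and the 5 profiles closest to LIF) were chosen with earlier results of these data known. Genes named outside this rule (JAK2, TYK2, JAK3, SOCS2, GRB2, ADAM17, MCL1, BIRC5, LRG1, MYC, genes at 0 or few counts, and genes overlapping a list gene) were chosen after their values were seen. A few genes of the lists are counted but not reported here by name. Replicates are numbered 1 to 3 in both groups, and library names share a letter within a number. After subtraction of group means, libraries of the same number correlated at 0.26, 0.15 and 0.25 and others at −0.28 to 0.021, which meets the criterion for pairing (every pair over 0.1), although the labels do not say what the numbers stand for. The values reported are from the fit without pairs, and the replicate block is an alternative.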

Additional observations from a re-analysis of the deposited data

How the results depend on the processing

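With the replicate number as a block, 2 members of the set were higher and 7 lower, IL6 being added, and 4 other pathway genes rose. Of all genes, 9.59% were higher and 11.4% lower in that fit. The block also changed the calls of SOCS2, GRB2, ADAM17, MCL1, BIRC5 and LRG1, and of no other gene named from the members, pathway genes or STAT3 targets. With library size only, 4 other pathway genes rose, where 7.84% of all genes were higher. Without a filter on low counts 4 STAT3 target genes rose, where 4.21% of all genes were higher. In limma on log2(FPKM + 1) and on log2(FPKM + 0.1), 3 STAT3 target genes fell in each, where 6.58% and 6.11% of all genes were lower. In limma on log2(FPKM + 1) over every gene with a count, 0 other pathway genes rose (6 at an unadjusted p under 0.05). In the same fit 1 other pathway gene and 1 STAT3 target gene fell. There, 29567 genes were tested, and 0.595% of them were higher and 0.683% lower. Over the fits that left out 1 library, 0 to 4 other pathway genes rose and 1 to 4 fell, 2 to 3 STAT3 target genes rose and 2 to 6 fell, and 2 members were higher and 4 to 7 lower, while 1.67% to 7.44% of all genes were higher and 2.9% to 8.59% lower. The log2 fold change of DAB2IP stayed between −1.99 and −1.55 over all 15 alternatives, and no member changed sign. The cause of these shifts was not tested. A difference in IL6 rests on 2 to 24 counts per library, and IL6 could not be fitted with at least 10 counts in every library or at a mean of 1 FPKM, nor IL11 at that mean.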

Other observations

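AU-rich elements, which shorten the life of many cytokine transcripts, were counted in the 3′ untranslated regions of the set from the longest coding transcript of each gene in GENCODE release 29. IL6 held 6 copies of the pentamer ATTTA in 429 bases, or 14.0 per kilobase, at percentile 99.5 of 12446 tested genes, whose median was 1.60 per kilobase. IL11 held 9 copies (5.56 per kilobase), LIFR 29 (4.37), CLCF1 4 (4.13), IL6ST 23 (3.84), OSMR 8 (3.64) and SOCS3 4 (2.44), while LIF held 7 (2.18), STAT3 4 (1.65) and IL6R 6 (1.47). The longer element ATTTATTTA was present in 3 of the 10 genes, IL11, OSMR and CLCF1, against 6.75% of all these genes. CLCF1, higher in siDAB2IP, and LIFR, lower, had similar densities, whereas LIF, higher, and IL6, with lower counts, did not. A relation between density and direction was not tested. These counts describe the reference sequence, and RNA stability was not measured.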
